A study of Mus musculus with 13 samples.

Results

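Galns and 8 other genes for lysosomal enzymes were followed through RNA-seq counts of the mouse enamel organ, the dental epithelium that makes enamel. All 9 genes are linked to the mucopolysaccharidoses, inherited disorders in which sulfated sugar chains pile up in lysosomes. The 9 genes are Galns, Ids, Arsb, Sgsh, Idua, Naglu, Gusb, Glb1 and Hgsnat, and they were found by symbol among the 48709 mouse genes of the count table. Galns was selected on its adjusted p between genotypes in these same libraries, so its difference between genotypes is given as a description. The other 8 were added for their link to the same group of diseases, with results of these data already known.

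Enamel organs were dissected from mandibular incisors at postnatal day 11. The Het group had 5 libraries from mice carrying 1 Tgfbr2 allele with the G357W substitution (Tgfbr2-G357W/+, named LDSR2 in the table), a model of Loeys-Dietz syndrome. The WT group had 8 libraries from Tgfbr2-+/+ littermates. No other allele or treatment is named for either group, and the labels name no promoter or Cre that would limit the substitution to a tissue. The design text gives 5 and 8 mice, which is 1 mouse for each library.

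Glycosaminoglycans are long sugar chains that include chondroitin, dermatan, heparan and keratan sulfate. Cells take them up and dismantle them in lysosomes one residue at a time from the free end, and sulfatases and glycosidases act in a fixed order, so a block at any step leaves the rest of the chain undigested. GALNS removes sulfate from keratan sulfate and chondroitin sulfate, and its loss in people causes Morquio syndrome type A, in which thin, pitted enamel is a known sign. Many lysosomal genes are under the control of TFEB and its relatives, transcription factors that bind an E-box with the core CACGTG.

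Promoter windows of 300 bases, from 250 bases before to 50 after the gene start, were listed for 7 of the 9 genes in the RefSeq table (GRCm38.p6). Galns and Hgsnat have no entry there. The core CACGTG, which reads the same on both strands, was found in 3 of the 7 windows, those of Sgsh, Naglu and Glb1, and in 7.15% of all 32851 windows of that length. The longer CLEAR element, a palindrome around this core named for lysosomal genes, was found in 0 of the 7 and in 0.326% of all windows. A match is a string of letters and no measured binding site. The 60 bases around the 3 matches are shown because they hold the core that the TFEB element also contains. Each is given 5′ to 3′ on the strand of the gene, with the core in capitals, at chr11:119355507-119355566 (minus strand) for Sgsh, chr11:101069994-101070053 (plus strand) for Naglu and chr9:114401003-114401062 (plus strand) for Glb1.
Sgsh: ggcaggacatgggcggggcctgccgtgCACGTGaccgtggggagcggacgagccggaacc
Naglu: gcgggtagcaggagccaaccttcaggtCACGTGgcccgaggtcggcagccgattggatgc
Glb1: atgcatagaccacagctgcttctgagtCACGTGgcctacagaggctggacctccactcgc
The cores start 29, 73 and 48 bases before the gene start of Sgsh, Naglu and Glb1.

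The Het libraries held 20266079 to 26122340 counts each and the WT libraries 18852382 to 26508410. The tissue's defining transcripts were abundant in every library. Ambn, the enamel matrix protein ameloblastin, ranged from 155987 to 238065 CPM (counts scaled to a common library total with TMM factors) in Het and from 124685 to 250976 in WT. Tgfbr2 itself was expressed in both groups, at 62.9 to 86.9 CPM in Het and 52.0 to 76.5 in WT, and gene counts do not separate its alleles. The column names carry a number before a hyphen, called the prefix here, which the labels do not explain. There were 1 Het and 3 WT libraries with prefix 1, 2 Het and 3 WT with prefix 4, and 2 Het and 2 WT with prefix 5. The first principal component of log2 CPM held 19.2% of the variance. Prefix explained 78.5% of this component and genotype 9.06%, so within-prefix values are given beside the differences.

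Galns transcripts were less abundant in the Het enamel organs than in the WT ones in every comparison of libraries. Galns (ENSMUSG00000015027, chromosome 8, 122578242 to 122611463, minus strand, GRCm38) had 8.88, 6.91, 7.12, 8.78 and 6.95 CPM in the 5 Het libraries, against a lowest of 11.3, a median of 12.96 and a highest of 15.6 CPM in the 8 WT libraries. All 5 Het libraries lay below all 8 WT libraries, with a gap from 8.88 to 11.3 CPM between the groups. Raw counts of Galns ran from 158 to 214 in Het libraries and from 208 to 401 in WT libraries. The mean log2 CPM was 2.96 ± 0.18 over the Het libraries and 3.71 ± 0.15 over the WT libraries (SD, n = 5 and 8). The log2 fold change was -0.75 ± 0.12 (SE), with a 95% interval of -1.01 to -0.50, which is a Het level of 0.593 times the WT level.

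The value that brought Galns into the set was its adjusted p of 0.0125 in edgeR's quasi-likelihood test with Benjamini-Hochberg adjustment over 16328 genes. In that test 14 genes, 0.0857%, had an adjusted p under 0.05, of which 7, 0.0429%, were lower in Het. The libraries' ranges were apart for 80 genes, 0.490% of those tested. Among the 9 enzyme genes 1 passed, and the next lowest adjusted p was 0.762, for Hgsnat. Since the contrast chose Galns, nothing is read from the share of 1 in 9.

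**Figure D1:**
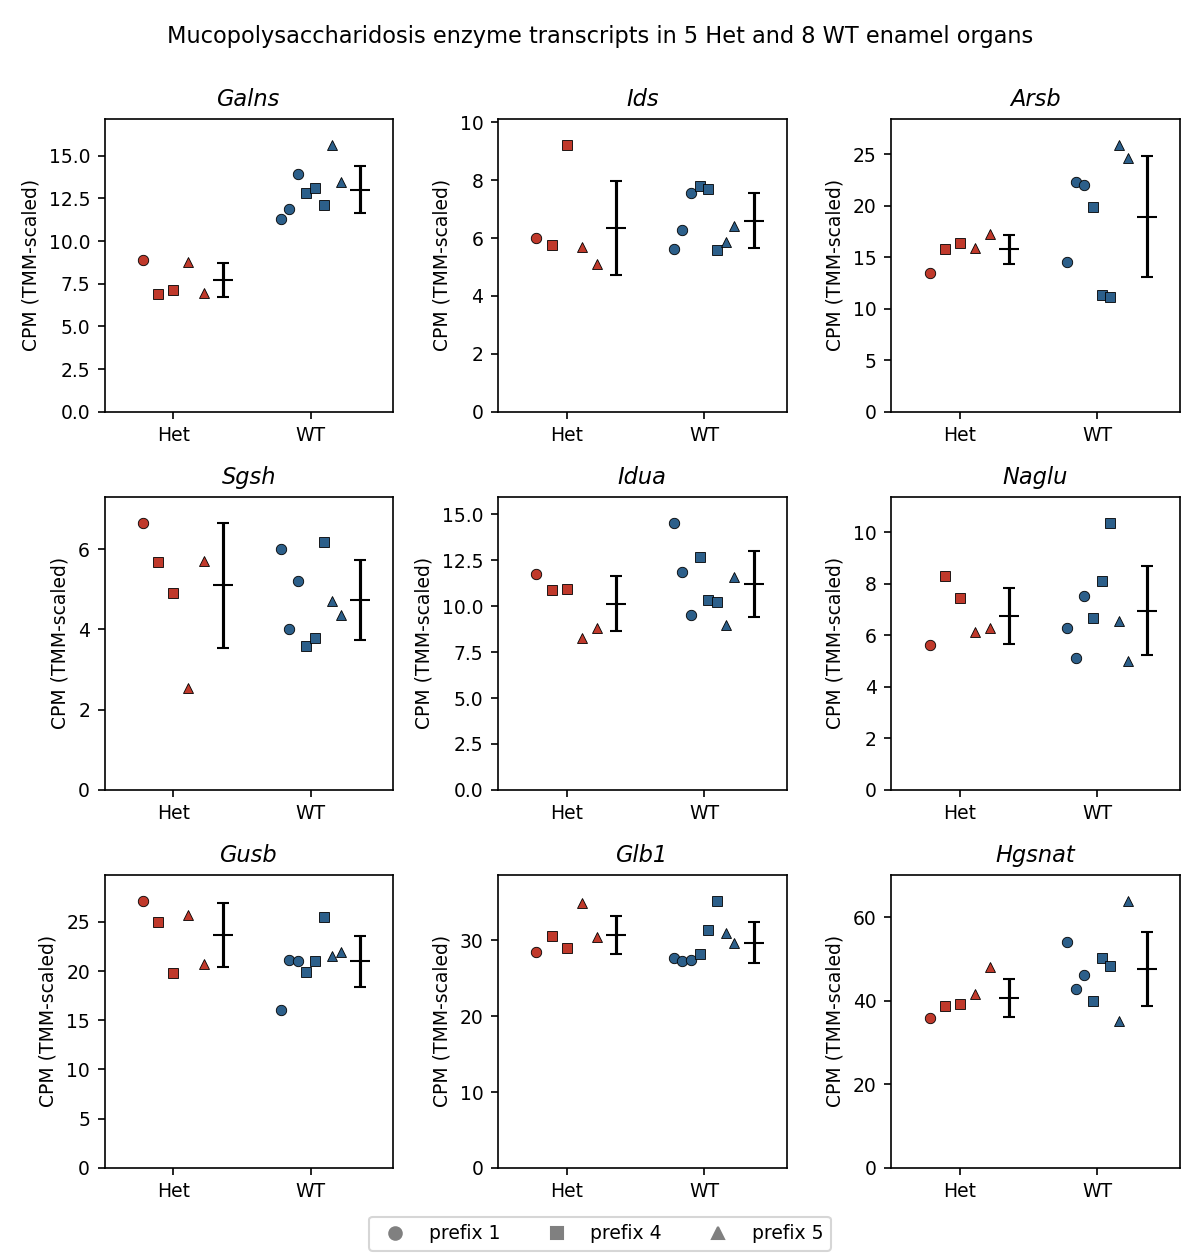
CPM of the 9 enzyme genes in each library (vertical axis, TMM-scaled, from 0), with 5 Het libraries to the left of 8 WT libraries, marker shape for the prefix, and bars for mean ± SD. Galns is the gene whose groups do not overlap, at 6.91 to 8.88 CPM in Het and 11.3 to 15.6 CPM in WT.

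Within each prefix the Galns level was lower in Het. The mean log2 CPM was 3.16 in Het and 3.63 in WT in prefix 1, 2.83 in Het and 3.67 in WT in prefix 4, and 2.98 in Het and 3.86 in WT in prefix 5. The differences were -0.47, -0.84 and -0.88, and the first rests on 1 Het library. As the 2 groups do not overlap, this direction follows in any subset of libraries. With the prefix as a term in the edgeR fit the log2 fold change was -0.77 ± 0.11 (SE). The adjusted p passed 0.05 when Het 4-2 (0.0529) or Het 5-6 (0.0606) was left out, while the log2 fold change stayed at -0.72 in both cases.

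Galns was also one of the steadier transcripts. Its SD within genotypes was 0.16 log2 CPM, and of the 2382 tested genes with a mean level within 0.5 log2 units of it, 92.6% varied more. Selection on a small adjusted p favours genes with a low SD within groups. The rank of Galns is thus a description and may follow from how it was chosen. Glb1 was the other steady member, with an SD of 0.12 against which 94.2% of 2304 genes of like level varied more. Arsb was at the opposite end, with an SD of 0.40 and 6.55% of 2457 genes of like level varying more.

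The other sulfatases of the set did not pass the test. Ids encodes iduronate sulfatase, which acts on dermatan and heparan sulfate and is lost in Hunter syndrome. It had 5.99, 5.77, 9.20, 5.70 and 5.10 CPM in Het, against a lowest of 5.58, a median of 6.35 and a highest of 7.80 CPM in WT. The groups overlapped, with Het 4-5 above every other library. Its log2 fold change was -0.05 (95% interval -0.39 to 0.28, edgeR adjusted p = 0.969), and the within-prefix differences were -0.10, 0.07 and -0.18.

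Arsb encodes arylsulfatase B, which removes sulfate from dermatan and chondroitin sulfate and is lost in Maroteaux-Lamy syndrome. Its level was 13.5, 15.8, 16.4, 15.9 and 17.3 CPM in Het, against a lowest of 11.2, a median of 20.9 and a highest of 25.9 CPM in WT. All 5 Het libraries lay below the WT median and inside the WT range. The log2 fold change was -0.27 (95% interval -0.66 to 0.13, edgeR adjusted p = 0.806). Within prefixes 1, 4 and 5 it differed by -0.51, 0.24 and -0.60, so its sign was not the same in all 3.

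Sgsh encodes the sulfatase that removes N-linked sulfate from heparan sulfate, and its loss causes Sanfilippo syndrome type A. Its level was 6.64, 5.69, 4.90, 2.54 and 5.72 CPM in Het, against a lowest of 3.58, a median of 4.54 and a highest of 6.19 CPM in WT. The Het group held both the highest and the lowest library. The log2 fold change was 0.11 (95% interval -0.33 to 0.54, edgeR adjusted p = 0.941), with 0.40, 0.27 and -0.24 within prefixes.

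Of the 4 glycosidases none passed either. Idua, the iduronidase lost in Hurler syndrome, had 11.8, 10.9, 11.0, 8.29 and 8.84 CPM in Het, against a lowest of 8.99, a median of 11.0 and a highest of 14.5 CPM in WT. Both Het libraries of prefix 5 lay below the WT range and the other 3 lay within it. The lowest WT library, WT 5-1 at 8.99 CPM, was also of prefix 5. The log2 fold change of Idua was -0.14 (95% interval -0.43 to 0.14, edgeR adjusted p = 0.859). Within prefixes 1, 4 and 5 it differed by -0.006, -0.012 and -0.25. Naglu, the glucosaminidase of heparan sulfate lost in Sanfilippo syndrome type B, had 5.62, 8.30, 7.44, 6.12 and 6.29 CPM in Het, against a lowest of 5.00, a median of 6.61 and a highest of 10.3 CPM in WT. All Het values of Naglu fell inside the WT range, and the log2 fold change was -0.04 (95% interval -0.40 to 0.33, edgeR adjusted p = 0.977). The within-prefix differences of Naglu were -0.15, -0.07 and 0.11, so the sign was not the same in all 3.

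Gusb, the glucuronidase lost in Sly syndrome, had 27.1, 25.0, 19.8, 25.7 and 20.7 CPM in Het, against a lowest of 16.1, a median of 21.1 and a highest of 25.5 CPM in WT. Het 1-2 and Het 5-5 lay above the highest WT library. Its log2 fold change was 0.17 (95% interval -0.07 to 0.41, edgeR adjusted p = 0.796), positive in all 3 prefixes at 0.49, 0.01 and 0.09. Glb1, the galactosidase that acts on keratan sulfate and on gangliosides, had 28.5, 30.6, 29.0, 34.9 and 30.4 CPM in Het, against a lowest of 27.3, a median of 28.9 and a highest of 35.1 CPM in WT. Every Het value of Glb1 lay inside the WT range, and its within-prefix differences were 0.05, -0.08 and 0.11. Its interval was the narrowest of the 9, with a log2 fold change of 0.05 (95% interval -0.15 to 0.24, edgeR adjusted p = 0.943). The intervals of all the enzymes other than Galns, down to -0.66 for Arsb, lay above the Galns estimate of -0.75. That estimate belongs to a gene selected on its adjusted p, and its own interval was -1.01 to -0.50. The Arsb interval overlapped this, and whether fold changes differ between enzymes was not tested.

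Hgsnat encodes the membrane enzyme that acetylates heparan sulfate ends across the lysosomal membrane, and its loss causes Sanfilippo syndrome type C. Its level was 35.9, 38.9, 39.1, 41.6 and 48.1 CPM in Het, against a lowest of 35.2, a median of 47.3 and a highest of 63.8 CPM in WT. Of the 5 Het libraries 4 lay below the WT median. Its log2 fold change was -0.23 (95% interval -0.49 to 0.04, edgeR adjusted p = 0.762), negative in all 3 prefixes at -0.40, -0.24 and -0.08.

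**Figure D2:**
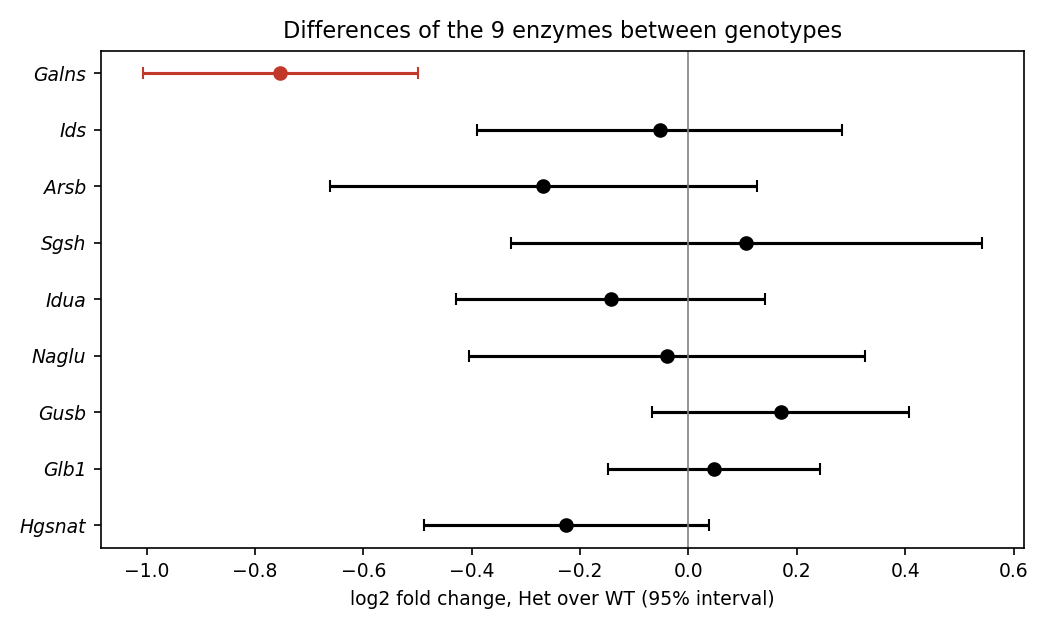
Log2 fold change of Het over WT for the 9 genes (horizontal axis), with 95% intervals from the edgeR fit. The interval of Galns runs from -1.01 to -0.50, and those of the other 8 include 0.

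Counting Galns, 6 of the 9 log2 fold changes were negative and 3 positive, with a median of -0.05, beside 8305 negative and 8023 positive over all genes tested and a median of -0.004. The 3 genes with the E-box core in their windows, Sgsh, Naglu and Glb1, had log2 fold changes of 0.11, -0.04 and 0.05. The 4 genes whose windows lack it, Ids, Arsb, Idua and Gusb, had -0.05, -0.27, -0.14 and 0.17.

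Set against each of the other enzymes within the same library, Galns had fewer counts in Het on average, and library scaling cancels in such a ratio. Galns had 22.6 to 31.2 counts per 100 counts of Glb1 in Het (median 24.5) and 34.4 to 50.8 in WT (median 44.5). Glb1 acts beside Galns in the breakdown of keratan sulfate. For Gusb the ratio was 27.7 to 36.01 in Het and 47.4 to 72.5 in WT, and for Ids 77.4 to 154 in Het and 165 to 266 in WT. In these 3 ratios the groups did not overlap, whereas they overlapped for Arsb, Sgsh, Idua, Naglu and Hgsnat. As Galns was selected for its difference, a lower Het ratio is due for any partner that changes little. Whether the groups overlap also depends on the spread of the partner. How often other genes as partners would give groups apart was not counted. The difference of mean log2 ratio was negative for all 8 partners, from -0.93 for Gusb to -0.54 for Hgsnat. Of all counts of the 9 genes, Galns made up 5.26% ± 0.71 in the Het libraries and 8.17% ± 0.94 in the WT libraries (SD, n = 5 and 8).

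**Figure D3:**
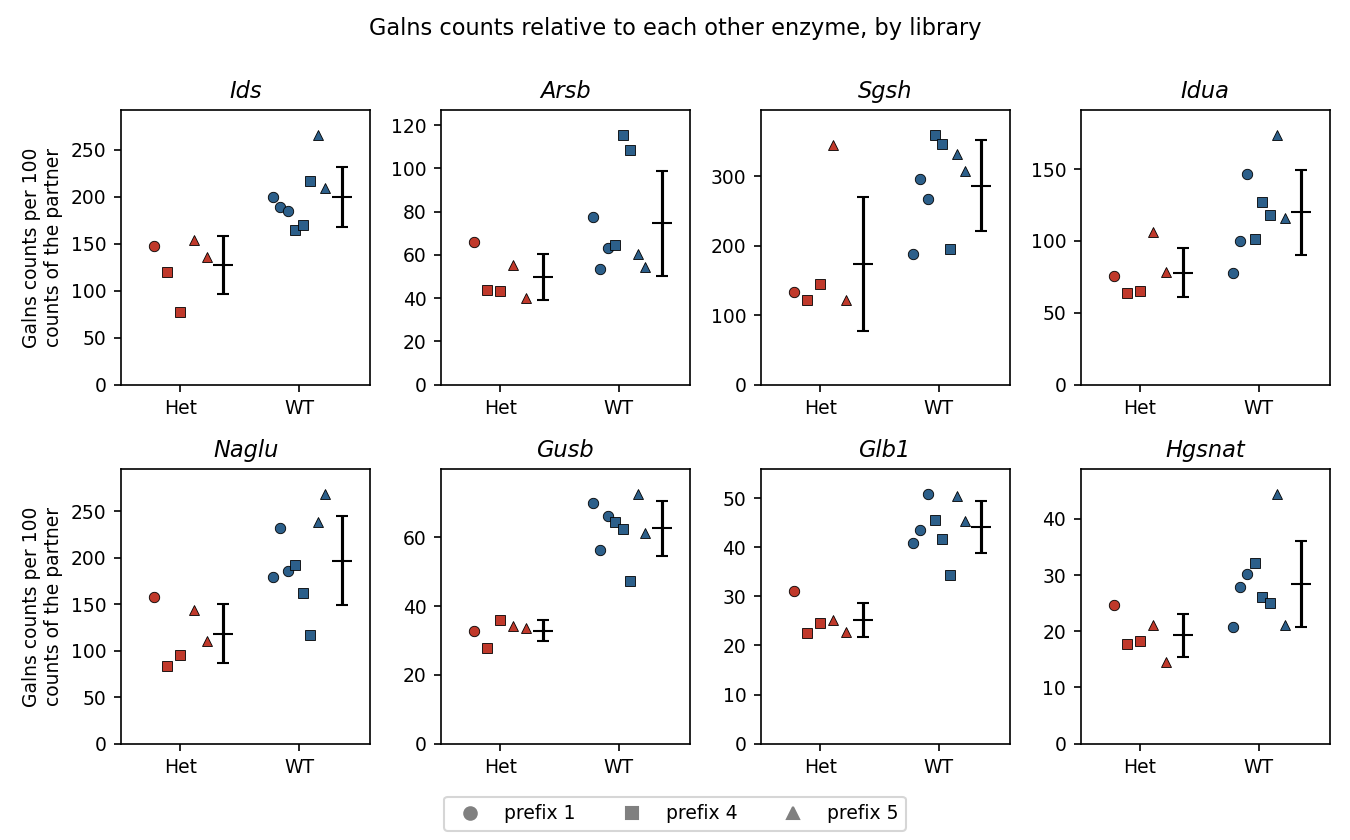
Galns counts per 100 counts of each of the other 8 enzymes (vertical axes, from 0) in each library, with Het to the left of WT, marker shape for the prefix, and bars for mean ± SD. The groups are apart for Ids, Gusb and Glb1, and 1 Het library of prefix 5 stands among the WT libraries for Sgsh.

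Levels of different genes were compared per transcript length, as TPM (counts per exon length, scaled to a common total) with exon lengths of GENCODE M21. Hgsnat led with 37.1 ± 2.35 TPM over Het libraries and 42.1 ± 8.48 over WT libraries (SD, n = 5 and 8, as for the next values). Glb1 followed with 30.9 ± 2.72 in Het and 28.8 ± 3.85 in WT, just beyond the summed SDs from Hgsnat, though their ranges overlapped in Het and in WT. These are the enzymes most highly expressed in the set, and over all tested genes 84.8% had a lower mean TPM than Hgsnat.

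Gusb and Galns came next. Gusb was at 15.8 ± 2.53 TPM in Het and 13.5 ± 2.12 in WT, and Galns at 8.83 ± 1.23 in Het and 14.3 ± 0.92 in WT. They did not differ beyond their spread in WT, and Gusb was higher beyond it in Het. In Het, Galns lay with Arsb (7.91 ± 0.78), Naglu (7.76 ± 1.75) and Idua (7.37 ± 1.54), with no neighbours apart beyond their spread. In WT, Galns was above Arsb (9.06 ± 2.51), which was not apart from Naglu (7.67 ± 2.29) and Idua (7.80 ± 1.52). Ids and Sgsh were lowest and not apart from each other, at 3.82 ± 1.22 and 3.51 ± 1.124 TPM in Het and at 3.76 ± 0.46 and 3.15 ± 0.83 in WT. With the longest annotated transcript as length, Gusb in WT had 19.0 TPM and Galns 12.3. The order and closeness of Gusb and Galns in WT thus depend on the length used.

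**Figure D4:**
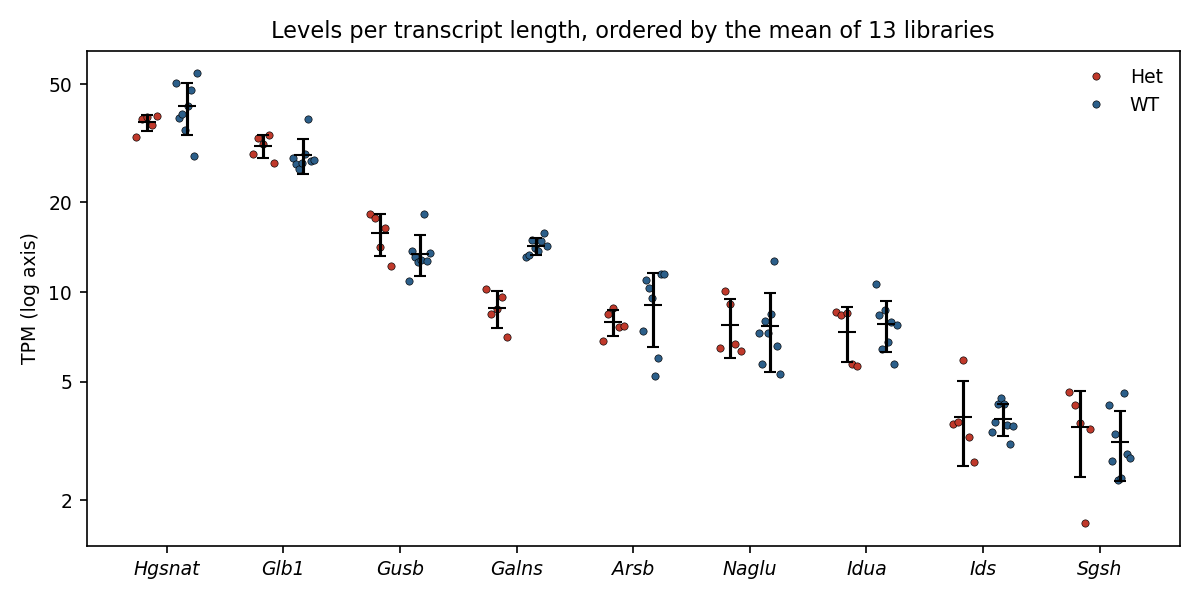
TPM of the 9 genes (vertical log axis) ordered by their mean over 13 libraries, with Het libraries to the left of WT libraries and bars for mean ± SD. Hgsnat and Glb1 lie highest and Ids and Sgsh lowest. With the exon lengths used here, Galns is near Gusb in WT and near Arsb, Naglu and Idua in Het.

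The libraries are unstranded, so reads from a gene and from an annotated partner on the other strand cannot be told apart where exons overlap. Galns lies inside the span of Gm20388 on the plus strand, but they share 0 exon bases and Gm20388 had 0 counts in every library. A processed pseudogene inside Galns, Gm45857, had at most 1 count in a library. Idua shares 141 exon bases with Slc26a1, a sulfate and anion exchanger on the opposite strand, and 124 with Dgkq. Slc26a1 averaged 4.82 ± 0.13 log2 CPM over Het libraries and 5.36 ± 0.38 over WT libraries (SD, n = 5 and 8), with a log2 fold change of -0.57 (95% interval -0.90 to -0.24, edgeR adjusted p = 0.289). Dgkq had 0.27 (adjusted p = 0.834).

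Sgsh shares 955 exon bases with Card14, which had 0 to 40 counts per library and a log2 fold change of 1.05 (95% interval -0.16 to 2.26, edgeR adjusted p = 0.759). Tmppe, which shares 165 exon bases with Glb1 on the same strand, had -0.31 (95% interval -0.59 to -0.02, edgeR adjusted p = 0.699). Arsb shares 1948 exon bases with Gm26527, which had 0 counts in every library, and 463 with Gm47210, not analysed here. How many reads of these enzymes came from a partner was not tested.

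None of the 6 tested genes within 100 kb of Galns passed the test. Trappc2l, a subunit of a trafficking complex, starts 177 bases from the 5′ end of Galns and runs the other way. It averaged 7.41 ± 0.09 log2 CPM over Het libraries and 7.62 ± 0.17 over WT libraries (SD, n = 5 and 8), with a log2 fold change of -0.22 (95% interval -0.43 to -0.005, edgeR adjusted p = 0.715). Aprt, an enzyme of adenine salvage 1333 bases beyond the other end, had -0.02 (95% interval -0.22 to 0.18, adjusted p = 0.983). Cdt1, a licensing factor of DNA replication, had -0.29, Cbfa2t3, a transcriptional corepressor, -0.32, Ctu2, a tRNA thiolation factor, -0.11, and Piezo1, a mechanically gated channel, 0.15, with edgeR adjusted p from 0.830 to 0.909.

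**Figure D5:**
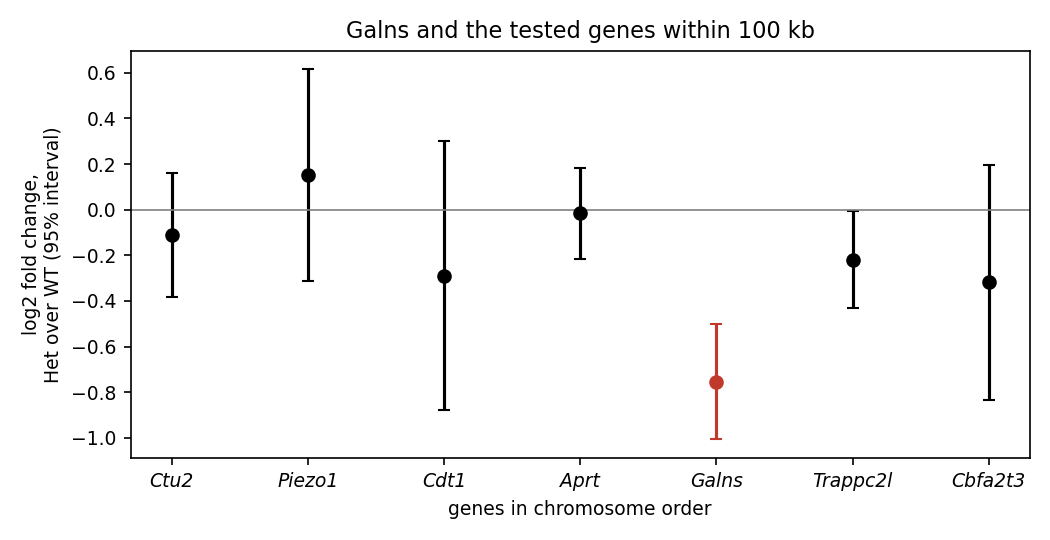
Log2 fold change of Het over WT (vertical axis, 95% intervals) for Galns and the 6 tested genes within 100 kb, in chromosome order. Galns lies at -0.75, and its nearest tested neighbours Trappc2l and Aprt lie at -0.22 and -0.02.

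Further mucopolysaccharidosis enzymes also did not pass. Arsk, another sulfatase of this pathway, had a log2 fold change of -0.33 (95% interval -0.62 to -0.04, edgeR adjusted p = 0.675). Hyal1, a lysosomal hyaluronidase named after its values were seen, had 0.03 (edgeR adjusted p = 0.974). Over the 10 other sulfatases and activators tested, 8 were negative and 2 positive with a median of -0.10, and 0 were called. Arsj, a sulfatase at low level, had -0.69 ± 0.47 (SE). Sumf1, the enzyme that activates all sulfatases, was chosen for naming after its values were seen and had 0.10 ± 0.10, at 50.4 to 59.0 CPM in Het and 39.5 to 58.5 in WT.

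Other lysosomal genes gave a median near or above 0. Of 16 further glycan-degrading enzymes 13 were positive (median 0.11), led by Gla, a galactosidase, with 0.22 ± 0.14 (SE) and Manba, a mannosidase, with 0.21 ± 0.13. Of 19 proteases and lipid enzymes 13 were positive (median 0.05), with 0.33 ± 0.16 for Cpq, a carboxypeptidase, and -0.29 ± 0.16 for Pla2g15, a phospholipase. The 17 membrane proteins had a median of -0.03, with 0.19 ± 0.10 for Clcn7, the lysosomal chloride exchanger, and -0.12 ± 0.12 for Cln3. In these 3 lists 0 members were called, and the smallest edgeR adjusted p was 0.735.

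Genes that sort enzymes to the lysosome by their mannose phosphate tag were mostly negative, 8 of 9, with a median of -0.15 and 0 called. Nagpa, which uncovers the tag, had -0.44 ± 0.15 (SE, edgeR adjusted p = 0.495), and Igf2r, the large receptor for it, -0.53 ± 0.23 (0.692). The 14 genes tested of TFEB relatives and lysosomal nutrient signalling had a median of -0.05 with 0 called. Mitf, a TFEB relative, had -0.49 ± 0.24 and Rragc, a GTPase of nutrient signalling, 0.25 ± 0.11.

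The lists on the making of the substrates also held 0 called genes. The median was -0.02 for 21 genes of chondroitin and dermatan sulfate synthesis, -0.02 for 15 of heparan sulfate synthesis, -0.11 for 7 of keratan sulfate synthesis, 0.12 for 10 of hyaluronan turnover, -0.04 for 31 proteoglycan core proteins and 0.09 for 9 of sulfate supply. Chst3, which adds the chondroitin sulfate groups that GALNS removes, had -0.83 ± 0.39 (SE, edgeR adjusted p = 0.712), and Chst15, another sulfotransferase, 0.24 ± 0.12. Hs3st6 and Hs3st3a1, sulfotransferases of heparan sulfate, had -0.42 ± 0.22 and -0.53 ± 0.35. In the keratan sulfate list Chst5, a sulfotransferase, had -0.995 ± 0.51 at a level under 1 CPM, and B4galt1, a galactosyltransferase, -0.34 ± 0.21. Cemip2 and Hyal3, enzymes of hyaluronan breakdown, had -0.29 ± 0.11 and 0.31 ± 0.16, and the proteoglycans Gpc1 and Ncan had -0.40 ± 0.18 and -0.41 ± 0.19. In the list on sulfate supply Slc26a1, given above, had the smallest p, and Papss1, which makes the sulfate donor, had 0.14 ± 0.13.

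The genes whose pattern over the 13 libraries was most like that of Galns were Heca, Gpr4, Plb1, Rhof and Slc39a2. Likeness was the root mean square difference between centred log2 CPM profiles, which was 0.19, 0.20, 0.22, 0.23 and 0.24 for these 5, beside a median of 0.49 over all genes tested. Gpr4 is a proton-sensing receptor, Plb1 a phospholipase, Rhof a small GTPase and Slc39a2 a zinc transporter. Their log2 fold changes of -0.75, -0.76, -0.76, -0.45 and -0.57 follow from the likeness to Galns. A flat profile would differ from Galns by 0.393. Among the enzymes Hgsnat came nearest at 0.402, no nearer than a flat profile, with 2366 tested genes nearer to Galns, and Sgsh was farthest at 0.59, with 12045 nearer.

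Markers of ameloblast stage and of other cells were measured beside the Galns difference. In bulk tissue, fewer cells of a type and less RNA per cell cannot be told apart. Of 18 maturation-stage genes tested 16 were negative, with a median of -0.20 and 0 called (smallest edgeR adjusted p 0.0770, for Slc39a2). Of these 18, 5 had an unadjusted edgeR p under 0.05, beside 1127 of all 16328 genes tested. The summed level of the 19 listed was 38201, 30675, 36756, 42678 and 55641 CPM in the Het libraries (1-2, 4-2, 4-5, 5-5 and 5-6), against 44821 to 59753 CPM in WT. Of the 5 Het libraries 4 thus lay below every WT library in this sum, as all 5 did for Galns, and Het 5-6 lay within the WT range. Most of the sum came from Odam, a secreted protein of maturation, at 26063 to 50586 CPM in Het and 38718 to 53708 in WT. The secretory-stage sum was 193274 to 279491 CPM in Het and 145588 to 288219 in WT.

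Osteoclast markers, from cells rich in lysosomes, were negative in 9 of 10 genes (median -0.12), with a sum of 125 to 263 CPM in Het and 187 to 345 in WT. Those of smallest p were Tnfrsf11a, the receptor for the osteoclast differentiation signal, with -0.75 ± 0.27 (SE, edgeR adjusted p = 0.566), Itgb3, an integrin, with -0.42 ± 0.17 (0.641), and Acp5, an osteoclast phosphatase, with -0.36 ± 0.17 (0.719). Calcr, the 1 positive gene (0.09 ± 0.58), was near 0 in some libraries, at 0.04 to 1.81 CPM in Het and 0.16 to 1.497 in WT. Macrophage and other immune markers were positive in 8 of 14, with a sum of 75.0 to 152 CPM in Het and 93.1 to 130 in WT. Osteoblast markers were negative in 11 of 11 (3751 to 7916 CPM in Het, 4516 to 9577 in WT), and odontoblast and pulp markers in 8 of 8 (1643 to 4293 CPM in Het, 2058 to 6476 in WT). Col1a1, Dmp1 and Phex stand in both of these lists, so their counts are not separate. Fibroblast markers were negative in 4 of 10 (1588 to 3293 CPM in Het, 2021 to 4220 in WT), and endothelial and pericyte markers in 2 of 10 (7261 to 10535 CPM in Het, 6655 to 14397 in WT). Most of the endothelial and pericyte sum came from Rgs5, a pericyte gene, at a mean of 13.1 log2 CPM in Het and 13.2 in WT. Its log2 fold change was -0.14 ± 0.18 (SE), and the sum says little about endothelial cells.

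Skeletal muscle markers were negative in 10 of 10 (13.7 to 72.3 CPM in Het, 11.4 to 168 in WT), and oral mucosa markers in 3 of 6 (23.1 to 32.1 CPM in Het, 20.8 to 77.5 in WT). In these lists 0 genes were called, 0 of the listed markers were at 0 in all libraries, and the groups' sums overlapped in each. Galns had a log2 fold change of -0.79 without the libraries highest in muscle markers, Het 1-2 and WT 1-4 (edgeR adjusted p = 0.0676). It had -0.71 without those highest in pulp markers, Het 4-2 and WT 4-3 (0.0919). Most of the pulp sum came from Col1a1, a collagen gene also in the osteoblast list, at a mean of 11.2 log2 CPM in Het and 11.5 in WT. The ranking of libraries by this sum is thus not particular to pulp. The part of stage and of other cells in the Galns difference was not tested.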

How the data were processed

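Total RNA of 13 samples went through the unstranded Nextera XT protocol and was sequenced in single-read mode, per the labels' protocols. The submitters' processing notes name STAR 2.5.2a, the build GRCm38, and DESeq2, edgeR and limma without their roles, and none of these sources names a counting tool. The deposited raw counts cover 48733 features, of which 24 spike-in and transgene features (at most 0.000177% of a library) were left out. A deposited filtered count table of 21223 features served as an alternative filter, and a deposited normalized signal (CPM with TMM scaling, by the table's name) was the counts times 1 constant per library and entered no test.

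Columns were assigned to genotypes by name only. Genes passing filterByExpr (count minimum 10; all 9 enzymes passed) numbered 16328 and were tested with edgeR 4.0.16 in R 4.3.3 (TMM, glmQLFit with robust estimation, glmQLFTest, Benjamini-Hochberg, threshold 0.05). SE came from the F statistic, and log2 CPM used a prior count of 2. TPM used exon-union lengths, and 360 genes without a length (at most 0.0359% of counts) stayed out. Each of 78 pairs of libraries differed by more than sampling noise (lowest chi-square per gene 11.4). The genes named are the 9 enzymes, tested genes overlapping them or within 100 kb of Galns, Tgfbr2, in each pathway list the 2 of smallest p where none was called, except 1 gene that is not reported here, and the 5 most like Galns. Sumf1, Hyal1 and the marker genes of ameloblasts, osteoclasts, pericytes, bone and pulp were named after their values were seen. The enzymes and gene lists were chosen with earlier results of these data known. Alternatives covered upper-quartile and RLE scaling, stricter and looser filters, DESeq2 1.42.0, limma 3.58.1 (voom), the prefix as a term, libraries left out, and transcript length.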

Additional observations from a re-analysis of the deposited data

Results flagged for a closer look

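Ids in Het 4-5, at 3.21 log2 CPM, stood apart from the other 4 Het libraries, the nearest of which was at 2.60. The gap was 0.727 of the group's range, above Dixon's 95% critical value of 0.71 for 5 samples. Of 18 combinations of gene and genotype tested, 1 was flagged, where 5% are due by chance. Without Het 4-5 the log2 fold change of Ids was -0.22 ± 0.15 (SE, edgeR adjusted p = 0.836), against -0.05 with it.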

How the results depend on the processing

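Galns was negative in all 28 alternatives, from -0.84 to -0.68, and passed the threshold in 21. It missed it without prefix 1 (-0.84, edgeR adjusted p = 0.216), prefix 4 (-0.68, 0.356) or prefix 5 (-0.71, 0.268), without the highest muscle libraries (-0.79) or pulp libraries (-0.71), and in 2 of 13 fits with 1 library left out (range -0.80 to -0.71, adjusted p 0.0120 to 0.0606). These fits have fewer samples. None of the other 8 enzymes passed in any of the 28. Signs turned for Ids without prefix 5 (0.055), the muscle libraries (0.0017) or the pulp libraries (0.014) and in a range of -0.22 to 0.016 with 1 library left out, for Naglu without the muscle libraries (0.0403) and in a range of -0.13 to 0.0651, and for Glb1 without prefix 5 (-0.0018).

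The 14 calls became 27 with no filter, 25 with at least 1 CPM in 5 libraries, 25 with limma-voom and sample weights, 74 with DESeq2 and 30 with the prefix as a term, each holding all 14. They became 6 to 22 with 1 library left out, 7 without the pulp libraries, 2 without the muscle libraries, 2 without prefix 5, 1 without prefix 4 and 0 without prefix 1. In the fit without prefix 1, 731 of 16150 genes tested had an unadjusted edgeR p under 0.05, where 5% are due by chance. No other tool was run there. The number of calls was 6 without Het 4-2 or Het 5-6 and 22 without WT 5-1. The counts of called genes given for the gene lists and markers are those of the fit on all 13 libraries without the prefix as a term.

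With the longest transcript as length, TPM moved to 12.3 for Galns in WT, 3.21 for Ids in WT, 9.83 for Arsb in Het, 22.2 for Gusb in Het, 19.0 for Gusb in WT and 27.5 for Glb1 in Het. No paired analysis was possible because the columns carry no replicate numbers of the labels, and the prefix, used as a term above, is the grouping the column names allow. Counts of 62 to 152 for Sgsh limit what could be seen for it.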

Other observations

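The WT means of Arsb differed between prefixes, at 4.27 log2 CPM in prefix 1, 3.77 in prefix 4 and 4.66 in prefix 5, over 3, 3 and 2 libraries. The 2 lowest WT libraries, WT 4-3 and WT 4-4 at 11.3 and 11.2 CPM, were both of prefix 4, while WT 4-1 of that prefix had 19.9 CPM. The Het means were 3.76, 4.01 and 4.06 in the same prefixes.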
